A study of Mus musculus with 16 samples.

Results

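The genes described here are the collagens of the mouse and 7 genes that mark fibroblasts, followed through 16 libraries of sorted thymic epithelium. Members were every Ensembl gene whose symbol names a numbered collagen chain, together with Pdgfra, Pdgfrb, Lum, Dcn, Fbn1, Postn and Thy1. The rule used names alone and found 51 genes, 44 collagens and 7 fibroblast genes, among 53464 Ensembl genes in the count table. Medullary thymic epithelial cells (mTEC) were sorted from 8 mice aged 4 to 6 weeks as CD45-, EPCAM+, Ly51- and UEA+ cells, and high or low MHC class II divided them into mature and immature mTEC. Each mouse gave 1 mature and 1 immature library from 10000 cells. The mice belonged to 2 lines, Rbfox1 and Rbfox2, each named for a floxed gene of an RNA-binding protein that regulates splicing. Within a line, 2 control mice (lox/lox : Foxn1 wildtype/wildtype) stood beside 2 tKO mice (lox/lox : Foxn1 wildtype/cre), so control and tKO mice alike carried the floxed alleles. Cre was driven by Foxn1, a gene of the thymic epithelium, so the deletion was aimed at epithelium and not at fibroblasts. Each pair of mice held 1 male and 1 female. The labels give C57BL/6 as the strain, and per the study's methods the background was a mix of 129S2/Sv and C57BL/6J.

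Collagens are secreted trimers that make up most of the extracellular matrix. The fibril-forming types I, III and V give tissue its tensile strength and are made chiefly by fibroblasts, type IV networks and types XV and XVIII belong to basement membranes, which epithelial cells help to build, and type VI forms beaded filaments at the border between both. Types II, IX, X and XI are known from cartilage, while types XIII, XVII, XXIII and XXV span the plasma membrane. Mature mTEC are known for promiscuous expression, driven in part by Aire, of genes that otherwise belong to single tissues, so transcripts of cartilage or nerve can be read in an epithelial cell. The thymus also holds fibroblasts in its capsule, septa and medulla, and these carry PDGFRA, the receptor used here as their reference marker.

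Library totals ran from 1506134 to 2430287 counts in immature mTEC and from 3737884 to 4636367 in mature mTEC. The members took 0.316 to 0.376% of the counts in mature mTEC. In immature mTEC they took 0.617 to 0.761% in the Rbfox1 line and 1.11 to 1.32% in the Rbfox2 line, with no overlap between the lines. Counts of Rbfox2 lay between 157 and 247 in the control libraries of its own line and between 34 and 70 in the tKO libraries. Rbfox1 in mature mTEC of its line was at 50.3 to 53.3 CPM of the unscaled library total in control and 31.1 to 34.9 in tKO mice, but in immature mTEC the values were 161 to 165 and 150 to 157, and gene counts also hold the exons that were not deleted. The sorted cells carried the markers of epithelium: Epcam was at 710 to 800 CPM in immature and 574 to 649 CPM in mature mTEC, where CPM is the count scaled to a library of fixed size after TMM normalization. Aire, the defining gene of mature mTEC, was at 634 to 1568 CPM in mature and 19.5 to 298 CPM in immature mTEC.

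Promoters are shown for the pairs of genes on which the results turn, to let the sequence be read beside the values. Col1a2 and Col3a1 encode fibrillar chains that were higher, as fibroblast genes were, in immature mTEC of the Rbfox2 line. Col4a1 and Col4a2 encode the chains of the abundant type IV trimer and lie head to head. Col10a1, from cartilage, and Col17a1, from the hemidesmosome of basal epithelium, were higher in mature mTEC. Each sequence runs 5′ to 3′ on the strand of the gene over 250 bases before and 50 after the start that RefSeq gives (build GRCm38.p6). Capitals mark 3 motifs searched on both strands, the TATA box (TATAAA), the CCAAT box (CCAAT) and the GC box (GGGCGG).
Col1a2, chr6:4505368-4505667, plus strand: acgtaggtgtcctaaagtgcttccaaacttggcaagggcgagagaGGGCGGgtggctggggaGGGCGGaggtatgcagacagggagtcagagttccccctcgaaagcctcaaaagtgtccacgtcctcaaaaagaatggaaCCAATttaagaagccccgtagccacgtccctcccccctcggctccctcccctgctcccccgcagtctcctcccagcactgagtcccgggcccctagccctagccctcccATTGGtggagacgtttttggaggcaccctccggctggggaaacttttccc
Col3a1, chr1:45311288-45311587, plus strand: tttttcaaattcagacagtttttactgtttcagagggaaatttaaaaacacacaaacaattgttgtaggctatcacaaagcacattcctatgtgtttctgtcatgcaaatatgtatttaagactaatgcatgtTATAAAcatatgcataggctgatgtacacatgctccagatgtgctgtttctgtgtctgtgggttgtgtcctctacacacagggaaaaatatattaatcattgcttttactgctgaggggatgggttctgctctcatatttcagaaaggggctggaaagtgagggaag
Col4a1, chr8:11312777-11313076, minus strand: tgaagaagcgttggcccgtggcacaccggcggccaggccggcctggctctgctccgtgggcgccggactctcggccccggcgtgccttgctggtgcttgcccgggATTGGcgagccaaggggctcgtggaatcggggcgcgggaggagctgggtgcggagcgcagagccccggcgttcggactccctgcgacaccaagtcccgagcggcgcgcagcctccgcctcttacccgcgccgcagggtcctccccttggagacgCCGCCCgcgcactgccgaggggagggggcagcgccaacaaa
Col4a2, chr8:11312555-11312854, plus strand: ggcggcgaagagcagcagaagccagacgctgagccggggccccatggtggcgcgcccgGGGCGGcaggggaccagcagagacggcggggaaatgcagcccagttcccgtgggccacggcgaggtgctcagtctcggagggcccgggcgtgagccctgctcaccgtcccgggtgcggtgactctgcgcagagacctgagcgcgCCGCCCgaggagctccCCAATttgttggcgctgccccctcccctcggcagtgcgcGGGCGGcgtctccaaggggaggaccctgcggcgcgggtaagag
Col10a1, chr10:34389731-34390030, plus strand: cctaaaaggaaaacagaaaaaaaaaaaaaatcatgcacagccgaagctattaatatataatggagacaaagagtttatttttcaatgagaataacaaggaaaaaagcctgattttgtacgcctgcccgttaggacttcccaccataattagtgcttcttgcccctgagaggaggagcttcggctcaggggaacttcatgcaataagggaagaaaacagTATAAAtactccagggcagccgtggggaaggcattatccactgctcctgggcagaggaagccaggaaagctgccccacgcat
Col17a1, chr19:47691993-47692292, minus strand: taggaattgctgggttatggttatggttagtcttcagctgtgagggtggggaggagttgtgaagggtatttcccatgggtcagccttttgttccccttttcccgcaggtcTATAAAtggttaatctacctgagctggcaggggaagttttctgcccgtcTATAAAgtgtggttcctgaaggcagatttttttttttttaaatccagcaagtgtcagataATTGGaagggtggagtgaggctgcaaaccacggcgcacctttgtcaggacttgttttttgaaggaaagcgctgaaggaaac

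The starts of Col4a1 and Col4a2 are 21 bases apart, so their windows share 78 bases read from opposite strands. Both hold CCAAT and GC boxes and no TATA box. Counting the first transcribed base as 0, Col10a1 has a TATA box at -32, Col3a1 one at -117 and Col17a1 at -140 and -91, while Col1a2 has CCAAT boxes at -109 and 0 and GC boxes at -205 and -188. The promoter table matched 38 of the 51 members, 35 of them collagens. Counting a gene once if any of its windows held the motif, a GC box was found in 23 of these 38 (60.5%) against 38.2% of the 27025 genes of that table, a CCAAT box in 14 (36.8% against 41.1%) and a TATA box in 6 (15.8% against 15.7%). These matches describe letters in the window and are not known sites.

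Levels are given per length. In RPKM (CPM divided by the kilobases of exon, mean over 8 mice ± SD), the highest members in immature mTEC were Col6a1 at 331 ± 105, Col4a1 at 191 ± 27.6 and Col6a2 at 164 ± 59. Col6a1 and Col6a2 encode the first and second chains of type VI collagen, and Col4a1 the main chain of the type IV network. The third type VI chain, Col6a3, stood at 10.8 ± 8.61 RPKM, far under its partners. Among the fibril-forming chains the highest level was that of Col3a1 at 47.2 ± 33.2 RPKM, and among the fibroblast genes that of Dcn at 67.2 ± 39.5. Pdgfra itself was low at 3.72 ± 2.81 RPKM. These means run over lines that stood apart: in the Rbfox1 and Rbfox2 lines Pdgfra was at 1.28 ± 0.293 and 6.16 ± 1.56 RPKM, Dcn at 31.4 ± 5.86 and 103 ± 14.1, Col3a1 at 17.8 ± 5.74 and 76.7 ± 14.8 and Col6a2 at 113 ± 25.4 and 216 ± 18.3 (4 mice each). Col4a1, at 169 ± 8.16 and 214 ± 19.7 RPKM, was above Col6a2 in the Rbfox1 line and level with it in the Rbfox2 line. In mature mTEC the order was another one: Col4a1 at 46 ± 3.57, Thy1 at 30.1 ± 4.81, Col14a1 at 29.7 ± 3.27, Col1a1 at 26.4 ± 2.14, Col17a1 at 25.5 ± 2.63 and Col6a1 at 25.2 ± 6.45 RPKM. These levels lay close together, and the order of the last 5 was not separated beyond their SD. Dcn stood at 17.5 ± 5.1 and Pdgfra at 0.869 ± 0.32 RPKM.

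**Figure D1:**
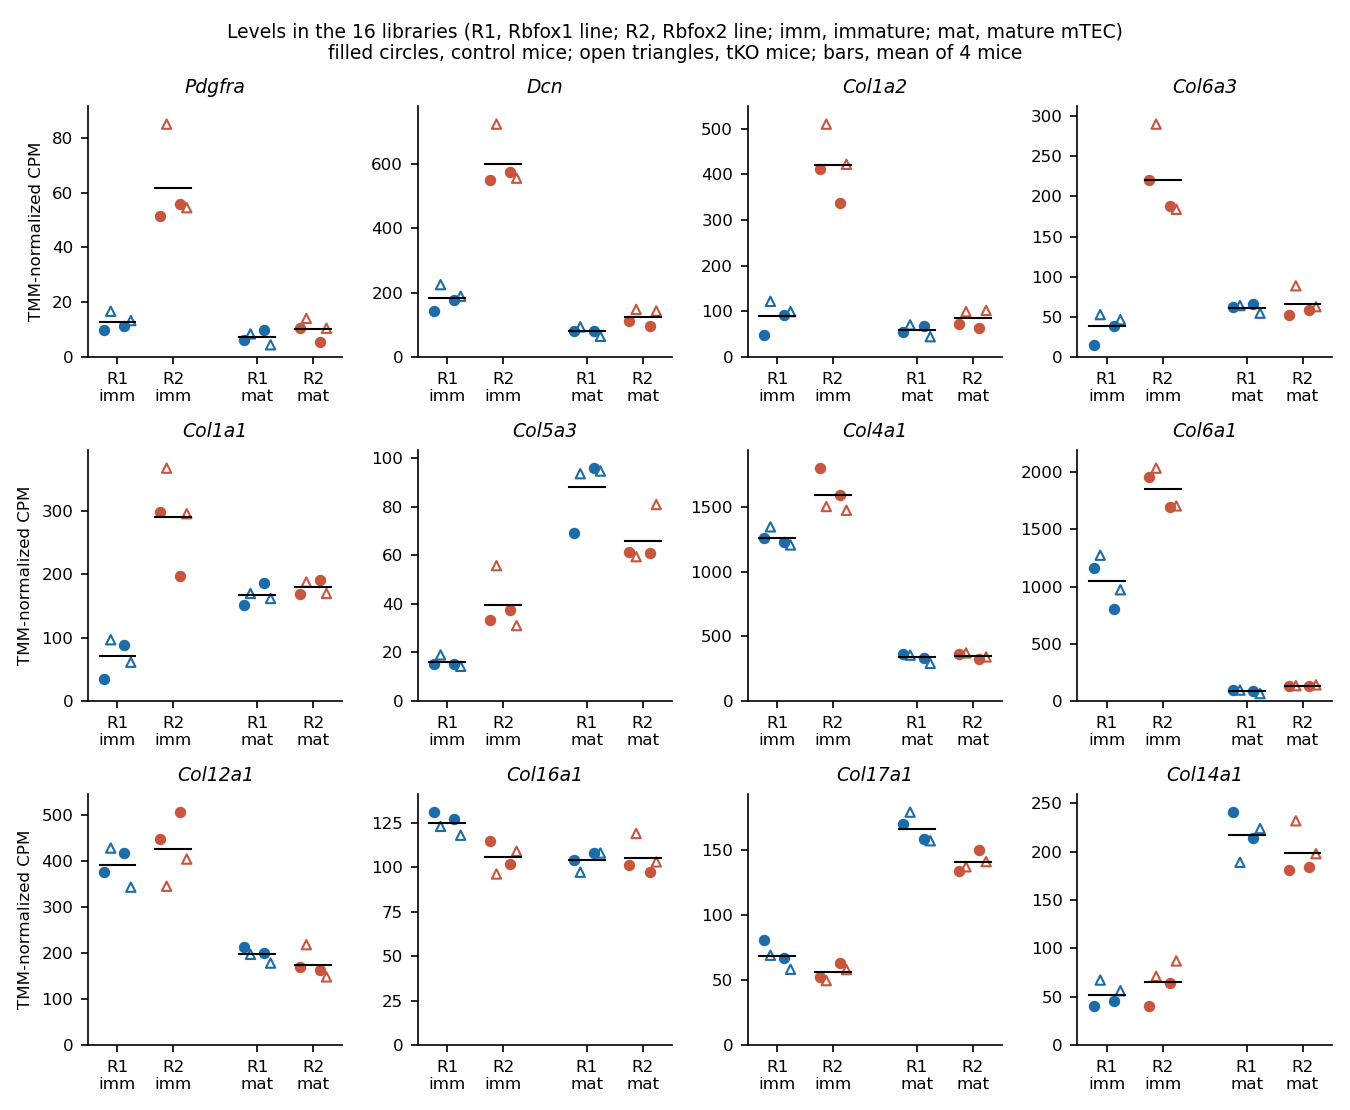
Levels of 12 members in every library as TMM-normalized CPM (linear axes from 0), grouped by line and population. Blue marks the Rbfox1 and red the Rbfox2 line, filled circles control and open triangles tKO mice, and bars the mean of 4 mice. For Pdgfra, Dcn, Col1a2, Col6a3 and Col1a1 the 4 immature libraries of the Rbfox2 line stand above those of the Rbfox1 line without overlap (Pdgfra 51.5 to 85.0 against 9.85 to 16.7 CPM), while Col12a1 overlaps between the lines and Col16a1 is lower in the Rbfox2 line.

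The first comparison asked how collagens and fibroblast genes differ between mature and immature mTEC. In the 4 control mice, 33 of the 48 members tested passed edgeR's quasi-likelihood test with a Benjamini-Hochberg adjusted p under 0.05 and a difference over 2-fold (a member that passed both is called below), 17 higher and 16 lower in mature mTEC. Of all genes tested in these mice 37.8% were called, 26.8% higher and 11.1% lower. Of the 17 higher members 9 did not pass the filter on low counts in the immature libraries alone and so entered the test through their mature libraries. The median log2 fold change was -0.23 over the members and 0.05 over all genes tested. In tKO mice 33 of 49 members were called against 38.1% of all genes, 16 higher and 17 lower (26.3 and 11.9% of all genes). Of these 16 higher members 9 likewise entered the test through their mature libraries. In both genotypes 15 members were higher and 15 lower. The share of all genes called alike in both was not computed, so these counts are a description. The control and tKO mice are different animals, so the contrast was measured separately in each. For members that entered through their mature libraries a shared call is no support. In a bulk library, fewer cells of a type and less RNA per cell cannot be told apart.

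The marker genes of fibroblasts split. Dcn and Lum, small proteoglycans that bind collagen fibrils, Postn, a matricellular protein, Fbn1, the backbone of microfibrils, and Pdgfra were lower in mature mTEC. Dcn ranged from 142 to 724 CPM (median 388) in immature and from 64.2 to 148 CPM (median 94.9) in mature mTEC, so that the ranges overlapped by the lowest immature library alone. In control mice its log2 fold change was -1.70 ± 0.08 (SE) with an adjusted p of 9.54e-13 (edgeR). Pdgfra ranged from 9.85 to 85 CPM (median 34.1) in immature and from 4.45 to 14.1 CPM (median 9.13) in mature mTEC. Its log2 fold change was -1.55 ± 0.22 (SE) with an adjusted p of 4.55e-06 (edgeR). The values for Fbn1, Postn and Lum were -2.38 ± 0.08 (SE), -1.71 ± 0.09 (SE) and -1.67 ± 0.20 (SE). These values pool lines that differed: all 5 genes were called lower in Rbfox2 control mice, but only Fbn1 in Rbfox1 control mice, where Dcn was at -0.95 ± 0.12 (SE), Postn at -0.59 ± 0.13 (SE), Lum at -0.41 ± 0.30 (SE) and Pdgfra at -0.39 ± 0.33 (SE). Of the exon bases of Fbn1, 20.1% lie opposite Gm9913, which had 47 counts over all libraries beside 7877 of Fbn1. Thy1, a surface glycoprotein of fibroblasts that thymocytes and neurons also carry, and Pdgfrb, a receptor of pericytes and fibroblasts, went the other way. Thy1 ranged from 10.7 to 59.2 CPM (median 21.9) in immature and from 74.9 to 115 CPM (median 92.3) in mature mTEC without overlap, and rose by 1.94 ± 0.12 (SE) with an adjusted p of 6.05e-11 (edgeR). Pdgfrb ranged from 12.2 to 50.2 CPM (median 23.9) and from 64.4 to 90.4 CPM (median 74.4), also without overlap, with 1.60 ± 0.12 (SE) and an adjusted p of 1.57e-09 (edgeR).

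Thymocyte and myeloid genes moved with maturation as well. The 6 thymocyte genes (Ptprc and Rag1 among them) summed to 3.43 to 23.3 CPM in immature and 45.2 to 57.7 CPM in mature mTEC, and 4 myeloid genes to 13 to 21.6 and 243 to 329 CPM. All 3 tested genes of each of these lists were called higher in mature mTEC of control mice, beside 26.8% of all genes tested. The 3 Schwann cell genes were called higher too, and summed to 1.63 to 8.34 CPM in immature and 25.9 to 43.8 CPM in mature mTEC. In the immature libraries alone 0 of 3 Schwann cell, 1 of 4 myeloid and 1 of 6 thymocyte genes passed the filter on low counts. The rest of those tested entered through their mature libraries, so these counts are no support for the lists. Other lists went down or split in control mice. Of 7 pericyte and smooth muscle genes tested 1 was higher and 5 lower, and of 5 endothelial genes 0 and 3. Of 10 fibroblast genes outside the members 4 were higher and 4 lower, where 26.8% of all genes tested were higher and 11.1% lower. Only 7 of these fibroblast genes passed the filter in the immature libraries alone, so the count of higher ones is no support. The part of all these lists in the values of Thy1, Pdgfrb and the other members was not tested.

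Among the collagens, basement membrane and type VI chains had the largest falls. Col6a2 ranged from 652 to 1985 CPM (median 1370) in immature and from 51.5 to 126 CPM (median 94.3) in mature mTEC, with no overlap, and its log2 fold change in control mice was -3.75 ± 0.12 (SE) with an adjusted p of 7.34e-15 (edgeR). For Col6a1 the ranges were from 800 to 2035 CPM (median 1484) and from 64.9 to 141 CPM (median 114), the change -3.59 ± 0.10 (SE) and the adjusted p 8.85e-16 (edgeR). Col6a3 did not pass (-0.32 ± 0.15 (SE), adjusted p 0.0691 by edgeR), a pooled value over lines in which it was called in opposite directions, as given with the lines apart. Of the 6 type VI chains, 4 fell and Col6a5 alone was higher, at 1.07 ± 0.13 (SE), in control mice. That call was lost in 3 of 16 settings, each with 1 library left out. The value was lowest (0.92) without the immature library of Rbfox1 control mouse 3, and Col6a6, at -1.54 ± 0.27 (SE), lost its call (-0.92) without the same library.

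Col18a1, whose C-terminal end is cut off as endostatin, had the third largest fall among the collagens. It ranged from 298 to 578 CPM (median 418) in immature and from 71 to 87.3 CPM (median 79.2) in mature mTEC, again with no overlap, and changed by -2.27 ± 0.08 (SE) with an adjusted p of 2.72e-14 (edgeR). The paired type IV chains gave similar values, -2.12 ± 0.07 (SE) for Col4a2 and -2.06 ± 0.06 (SE) for Col4a1. Col4a1 stayed high in mature mTEC, at 291 to 372 CPM in the 8 libraries. Among the 7 basement membrane chains tested in control mice, 4 were called lower and 1, Col4a3, higher.

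The fibril-forming chains did not move as a block. In control mice Col3a1 (-1.85 ± 0.15 (SE), adjusted p 4.03e-09 by edgeR) and Col1a2 (-1.32 ± 0.14 (SE), adjusted p 7.77e-08) were lower in mature mTEC, and Col5a3, a minor chain of type V, was higher (1.61 ± 0.13 (SE), adjusted p 2.96e-09). Col1a1, which pairs with Col1a2 in type I collagen, was at 0.49 ± 0.16 (SE) and was not called for want of a 2-fold difference. Col5a1 and Col5a2 gave -0.08 ± 0.08 (SE) and -0.44 ± 0.08 (SE). Here too the lines differed, as Col3a1 and Col1a2 were called lower in Rbfox2 control mice and not in Rbfox1 control mice (-0.83 ± 0.22 (SE) and -0.19 ± 0.20 (SE)).

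Some chains known from cartilage and from the cell membrane were higher in mature mTEC. Of 8 cartilage chains tested in control mice 4 rose and none fell, and of 4 anchoring and transmembrane chains 3 rose and none fell, where 26.8% of all genes tested rose. Of these 7 genes Col9a1, Col10a1, Col11a1, Col13a1 and Col23a1 passed the filter through their mature libraries, so the counts are no support for the lists. Col2a1, Col9a2, Col9a3 and Col27a1, the other cartilage chains tested, were not called, at -0.50 ± 0.18 (SE), 0.11 ± 0.13 (SE), -0.67 ± 0.32 (SE) and -0.31 ± 0.09 (SE). Col10a1, the collagen of hypertrophic cartilage, had 2 counts in the 4 immature control libraries and 567 in the mature ones, a ratio of 132 after scaling to TMM-normalized library sizes (95% exact interval 36.4 to 1090, which covers counting error only). In the 8 mature libraries it ranged from 24.2 to 38 CPM (median 34.7). Col9a1, a type IX chain that coats cartilage fibrils, ranged from 1.28 to 7.79 CPM (median 1.84) and from 18.1 to 26.7 CPM (median 22.3) without overlap, with a log2 fold change of 2.96 ± 0.25 (SE) and an adjusted p of 5.44e-09 (edgeR).

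Col11a1, another cartilage chain, had 1 count in immature and 79 in mature control libraries, a ratio of 36.8 (6.42 to 1470). Col4a3, a chain of the kidney and lung basement membrane, had 0 and 103 counts, which makes it at least 16-fold higher against a floor of 3 counts over the immature control group. Col25a1, a transmembrane collagen of neurons, passed no filter on low counts in any comparison. It had 1 count in the immature and 29 in the mature control libraries. Depth in immature mTEC therefore sets how large these ratios can be shown to be.

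Col17a1, the transmembrane collagen of hemidesmosomes in basal epithelium, ranged from 49.5 to 81 CPM (median 60.5) in immature and from 134 to 179 CPM (median 154) in mature mTEC. The groups did not overlap, and it rose by 1.23 ± 0.09 (SE) with an adjusted p of 6.91e-10 (edgeR). Col14a1, a chain that attaches to the surface of fibrils, ranged from 40.3 to 87 CPM (median 60.1) and from 181 to 241 CPM (median 206) and rose by 2.12 ± 0.10 (SE) with an adjusted p of 1.92e-12 (edgeR). Its relative Col12a1 fell, at -1.22 ± 0.07 (SE), and Col16a1 was at -0.20 ± 0.08 (SE). Col13a1, Col20a1, Col23a1 and Col28a1 were also higher, by 1.64 to 1.88 on the log2 scale. Of these Col28a1 had only 17 counts over all 8 immature libraries and lost its call in 3 of 10 settings. They were the fit without a filter and those without the immature library of Rbfox1 control mouse 2 (1.29) or Rbfox2 control mouse 2. Col26a1 lost its call at 0.92 without the immature library of Rbfox1 control mouse 2. Col4a4 at -1.10 ± 0.34 (SE) lost its call in 5 of 15 settings. Among these were the fit without a filter, thinned counts and the fit without the mature library of Rbfox1 control mouse 2 (-0.84). Col8a2 and Col11a2 rose by 1.63 ± 0.43 (SE) and 1.30 ± 0.37 (SE), and Col6a4 fell, at -1.39 ± 0.09 (SE). Col8a2 was not called in tKO mice. Col8a2, Col13a1, Col23a1, Col26a1 and Col28a1 passed the filter on low counts through their mature libraries, so their calls are no support.

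The enzymes and chaperones that make, cross-link and degrade collagen were counted as a list of 35 genes. Of 32 tested in control mice, 3 were higher and 12 lower in mature mTEC (26.8 and 11.1% of all genes), with a median log2 fold change of -0.58. The largest falls were those of Lox (-4.04 ± 0.11 (SE)), which cross-links fibrils, and Fkbp10 (-3.41 ± 0.15 (SE)), a chaperone of procollagen. Loxl4, a relative of Lox, rose by 3.38 ± 0.17 (SE). The collagenase gene Mmp13 rose too, with 0 to 0.697 CPM in the immature and 17 to 24.4 CPM in the mature libraries. Of 8 collagen receptors tested 3 were higher and 3 lower. Lair1, an inhibitory receptor of leukocytes, was called higher at 0 to 1.39 CPM in the immature and 1.73 to 4.91 CPM in the mature libraries, levels too low in immature mTEC for a fold change. Itga11, an integrin chain, rose by 2.92 ± 0.38 (SE), from at most 2.78 CPM in the immature libraries. In the immature libraries alone 6 receptors passed the filter on low counts. Mmp13, Lair1 and Itga11 entered through their mature libraries, so their calls are no support. Ddr1, a receptor kinase of epithelium, and Itga1 fell, at -2.13 ± 0.07 (SE) and -1.21 ± 0.12 (SE).

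A difference between the mouse lines ran through the immature libraries. It was looked at after the values had been seen, since the study was not designed to compare lines, and the line cannot be told apart from litter, genetic background or the days of breeding and sorting. Over the 4 mice of each line, control and tKO together, 15 of 39 members tested were called (5.05% of all genes), 13 of them higher in the Rbfox2 line (1.91% of all genes were called in that direction). The median log2 fold change, Rbfox2 against Rbfox1 line, was 0.76 over the members and -0.00 over all genes tested. In the control mice alone 14 members were called against 4.10% of all genes, and in the tKO mice 15 against 3.15%. The same 13 members were higher in both, and the share of all genes higher in both was not computed. They were 6 fibroblast genes and Col1a1, Col1a2, Col3a1, Col5a3, Col6a3, Col6a6 and Col15a1. Of these, 3 had calls that did not hold in every setting. Pdgfrb in control mice (1.02) lost its call with DESeq2, with library totals and without the immature library of Rbfox1 control mouse 2 or Rbfox2 control mouse 1, at 0.84 to 1.23 over all settings. Thy1 lost its call without either of those 2 libraries and, in tKO mice, without that of Rbfox2 tKO mouse 1. Col5a3 lost its call without the immature library of Rbfox1 control mouse 3, Rbfox2 control mouse 2, Rbfox1 tKO mouse 3 or Rbfox2 tKO mouse 1. With control and tKO mice together all 3 kept their calls in each of the 14 settings tried.

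Postn had the largest difference among the fibroblast genes. Its immature libraries lay at 74.5, 98.4, 164 and 166 CPM in the Rbfox1 line (control mice 2 and 3, then tKO mice 2 and 3) and at 613, 664, 955 and 543 CPM in the Rbfox2 line (control mice 1 and 2, then tKO mice 1 and 2). The lines did not overlap, and the log2 fold change was 2.53 ± 0.14 (SE) with an adjusted p of 7.37e-09 (edgeR). Pdgfra lay at 9.85, 11.4, 16.7 and 13.3 CPM in the Rbfox1 and 51.5, 55.7, 85 and 54.5 CPM in the Rbfox2 line in the same order of mice, with 2.26 ± 0.17 (SE) and an adjusted p of 1.77e-07 (edgeR). Every library of the Rbfox2 line was thus above every library of the Rbfox1 line, and tKO mouse 1 was the highest. Lum (2.42 ± 0.15 (SE)) and Dcn (1.72 ± 0.10 (SE)) gave differences of the same order, Thy1 (1.55 ± 0.24 (SE)) and Pdgfrb (1.35 ± 0.17 (SE)) smaller ones. Fbn1 passed the test of p but stayed under 2-fold (0.83 ± 0.07 (SE)).

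Among the collagens, Col6a3 had the largest difference. It lay at 15, 38.8, 52.8 and 46.5 CPM in the Rbfox1 and 220, 188, 290 and 184 CPM in the Rbfox2 line. No library of one line reached the other, control mouse 2 of the Rbfox1 line was the lowest, and the log2 fold change was 2.58 ± 0.18 (SE) with an adjusted p of 1.02e-07 (edgeR). Col1a1 lay at 35.5, 89, 96.8 and 61.3 and 299, 198, 368 and 296 CPM, and Col1a2 at 48, 93.1, 122 and 99.5 and 412, 338, 510 and 422 CPM. Both type I chains were separated between the lines, with 2.02 ± 0.20 (SE) and 2.23 ± 0.14 (SE). The values of Col6a6, Col3a1, Col15a1 and Col5a3 were 2.45 ± 0.23 (SE), 2.11 ± 0.16 (SE), 1.98 ± 0.14 (SE) and 1.29 ± 0.19 (SE).

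The most abundant collagens of immature mTEC differed by less than 2-fold. Col4a1 lay at 1263, 1233, 1347 and 1207 CPM in the Rbfox1 and 1801, 1597, 1504 and 1475 CPM in the Rbfox2 line, a log2 fold change of 0.33 ± 0.06 (SE) with an adjusted p of 0.00127 (edgeR). The lines were separated here too, but by little. Col6a2, at 652 to 1099 CPM in the Rbfox1 and 1640 to 1985 CPM in the Rbfox2 line, had the largest difference of these chains at 0.94 ± 0.12 (SE), just under 2-fold. Col6a1 gave 0.81 ± 0.11 (SE) and Col18a1 0.55 ± 0.08 (SE). Col12a1 (0.11 ± 0.08 (SE)), Col6a4 (0.05 ± 0.09 (SE)), Col9a2 (-0.11 ± 0.15 (SE)), Col16a1 (-0.24 ± 0.09 (SE)) and Col17a1 (-0.31 ± 0.12 (SE)) did not pass. Col11a2, a cartilage chain, and Col20a1 were lower in the Rbfox2 line, at -2.11 ± 0.48 (SE) and -1.58 ± 0.41 (SE), on 73 and 84 counts over the 8 libraries. Col20a1 lost its call with DESeq2 (-1.60) and without the immature library of Rbfox2 control mouse 1 (-1.34) or tKO mouse 2 (-1.33).

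**Figure D2:**
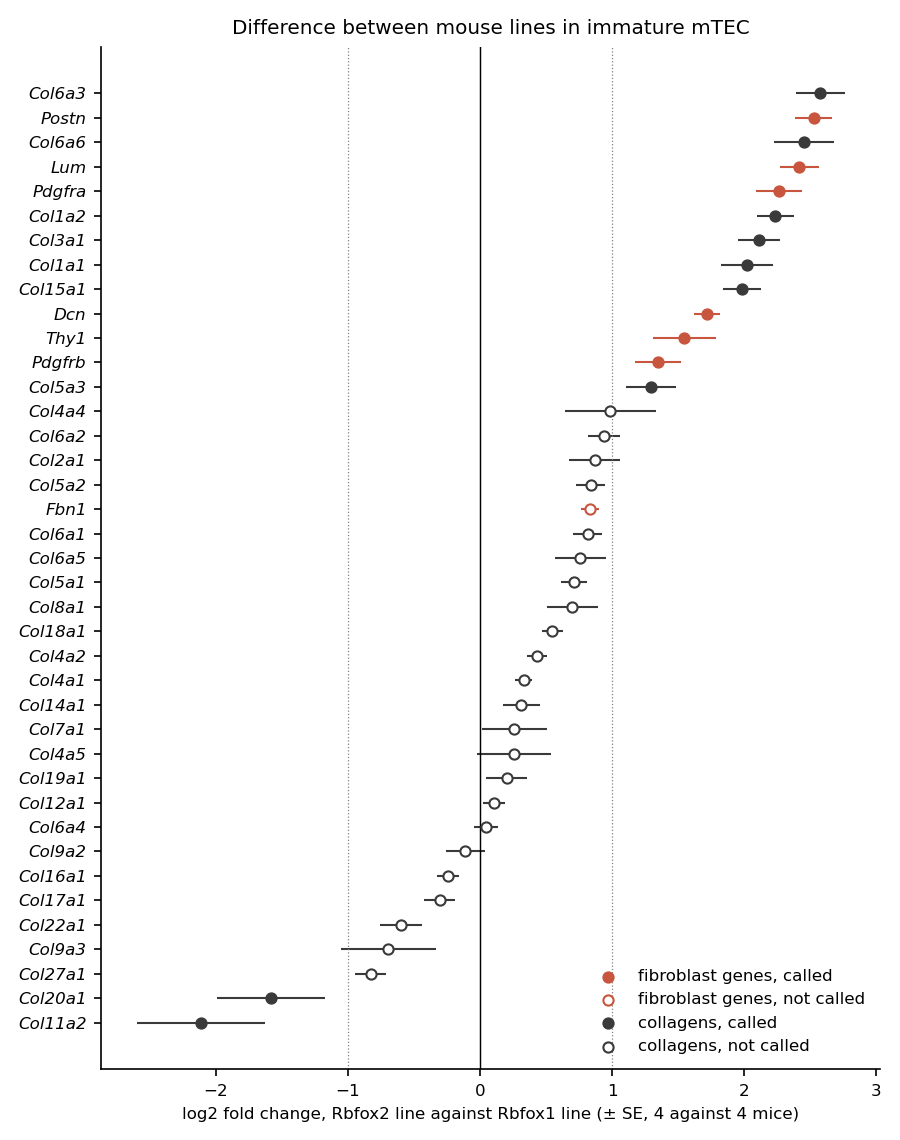
Log2 fold change of each of the 39 tested members in immature mTEC, Rbfox2 line against Rbfox1 line (4 against 4 mice, bars ± SE, dotted lines at 2-fold). Filled points are called, red marks fibroblast genes and black collagens. Points run from -2.11 (Col11a2) to 2.58 (Col6a3), and the 13 called higher members stand apart at 1.29 and above.

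Genes of other cell types and of the epithelium moved with the line. Of all genes tested, 1.91% were called higher in immature mTEC of the Rbfox2 line and 3.15% lower. The shares called higher were 1.41% in control mice alone and 1.46% in tKO mice alone. Of 12 other fibroblast genes, 7 could be tested and 5 were higher in immature mTEC of the Rbfox2 line, led by Dpt (2.21 ± 0.18 (SE)). Their summed level was 346 to 449 CPM in the Rbfox1 and 646 to 807 CPM in the Rbfox2 line, and transcription factors of mesenchyme among them differed: Prrx1 was at 10.2 to 12.5 and 22.8 to 40.4 CPM and Twist1 at 0.51 to 2.04 and 3.48 to 4.83 CPM, both without overlap, while Tcf21 and Twist2 were at 0 to 1.02 CPM in all of these libraries. Of 6 endothelial genes, 4 were higher (1 in control mice alone and 5 in tKO mice alone), and their sum was 36 to 96.4 and 90.5 to 279 CPM. Of 7 pericyte and smooth muscle genes, none was called higher and Cspg4 was called lower. Their sum was 2961 to 3600 and 3365 to 4717 CPM. Aire was lower in the Rbfox2 line, at 19.5 to 53.9 against 211 to 298 CPM (-2.71 ± 0.18 (SE)), and so was Cd80 (-1.72 ± 0.23 (SE)), a costimulatory ligand of mature mTEC. Epcam was level (0.00 ± 0.07 (SE)), and none of the 6 medullary epithelial genes was called. The part of these in the members' values was not tested. Thymocyte genes summed to at most 23.3 CPM in any immature library, and myeloid genes to at most 21.6 CPM.

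The genes of collagen making were followed in the same contrast. Of 31 tested, 4 were higher in the Rbfox2 line: Pcolce (2.19 ± 0.12 (SE)), which speeds the cleavage of procollagen, the proteases Ctsk (1.75 ± 0.31 (SE)) and Mmp2 (1.20 ± 0.11 (SE)), and the lysyl hydroxylase Plod1 (1.11 ± 0.17 (SE)). None was lower. Of 6 receptors, Ddr2 (2.25 ± 0.20 (SE)), Mrc2 (2.12 ± 0.26 (SE)) and Itga1 (1.14 ± 0.10 (SE)) were higher. Beside these counts stand 1.91% of all genes called higher and 3.15% called lower in the Rbfox2 line.

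In mature mTEC only 3 of 50 members were called between the lines, beside 1.04% of all genes. Postn was higher in the Rbfox2 line, at 82.7 to 142 against 38.6 to 58.9 CPM (1.07 ± 0.10 (SE)), and Col27a1 and Col24a1 were lower (-1.17 ± 0.11 (SE) and -1.28 ± 0.37 (SE)). Col24a1 lost its call in 7 of 13 settings, with DESeq2 and without the mature library of Rbfox1 control mouse 2, Rbfox1 tKO mouse 2 or 3, Rbfox2 control mouse 1 or 2 or Rbfox2 tKO mouse 2, while Col27a1 kept its call in every setting tried. Without the mature library of Rbfox1 tKO mouse 3 Col27a1 alone was called, and Postn was at 0.94. Pdgfra overlapped between the lines, at 4.45 to 9.81 and 5.38 to 14.1 CPM. Aire did not overlap, at 1225 to 1568 CPM in the Rbfox1 and 634 to 901 CPM in the Rbfox2 line, though it was not called. Its part in the members' values was not tested.

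With the lines apart, the comparison of mature with immature mTEC gave different answers for some collagens and fibroblast genes. In the Rbfox1 line 24 of 48 members were called in control mice (35.0% of all genes) and in the Rbfox2 line 31 (38.0%). In tKO mice the counts were 28 of 49 (35.4%) and 34 (37.5%). Members called higher in all 4 combinations of line and genotype were Col4a3, Col9a1, Col10a1, Col11a1, Col14a1, Col17a1, Col20a1, Col23a1 and Thy1. Of these, Col4a3, Col9a1, Col10a1, Col11a1 and Col23a1 passed the filter on low counts through their mature libraries, so their calls are no support. Members called lower in all 4 were Col4a1, Col4a2, Col6a1, Col6a2, Col6a4, Col18a1 and Fbn1. The share of all genes called in the same direction in all 4 was not computed, so these lists are a description.

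The difference of the maturation contrast between the lines was tested as an interaction, also chosen after the values had been seen. In control mice 17 of 48 members passed an adjusted p under 0.05 (1.65% of all genes), and in tKO mice 13 of 49 (1.41%), all with a lower mature-to-immature ratio in the Rbfox2 line. They share the immature libraries with the comparison of the lines above, so they are not a second measurement of it. Passing in both genotypes were 11 members: Col1a1, Col1a2, Col3a1, Col5a1, Col5a2, Col5a3, Col6a3, Col6a6, Col15a1, Lum and Pdgfrb. The share of all genes passing in both was not computed. The count in control mice dropped to 1 when no filter on low counts was applied, while DESeq2 gave 15. The count in tKO mice was 4 without the mature library of Rbfox1 tKO mouse 2, 7 without the immature library of Rbfox1 tKO mouse 3 and 6 without the immature library of Rbfox2 tKO mouse 1.

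Col6a3 was the member called in opposite directions. In Rbfox1 control mice it was at 15.0 and 38.8 CPM in immature and 62.1 and 65.7 CPM in mature mTEC, up by 1.25 ± 0.23 (SE) with an adjusted p of 0.000131 (edgeR). In Rbfox2 control mice it was at 220 and 188 CPM in immature and 52.4 and 58.2 CPM in mature mTEC, -1.88 ± 0.18 (SE) with an adjusted p of 6.51e-08 (edgeR). The mature levels of the lines lay close together and the immature levels far apart. In tKO mice the changes of Col6a3 were 0.28 ± 0.20 (SE) and -1.64 ± 0.17 (SE), and only the second was called. Col1a1 rose by 1.44 ± 0.24 (SE) in the Rbfox1 line and was at -0.46 ± 0.22 (SE) in the Rbfox2 line, where it was not called. In tKO mice it rose by 1.09 ± 0.15 (SE) and was at -0.88 ± 0.14 (SE). In the Rbfox1 line both calls rest on 1 library, since without the immature library of control mouse 2 Col1a1 was at 0.90 and Col6a3 at 0.70. Pdgfra gave -0.39 ± 0.33 (SE) in Rbfox1 control mice, where it was not called, and -2.72 ± 0.27 (SE) in Rbfox2 control mice.

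**Figure D3:**
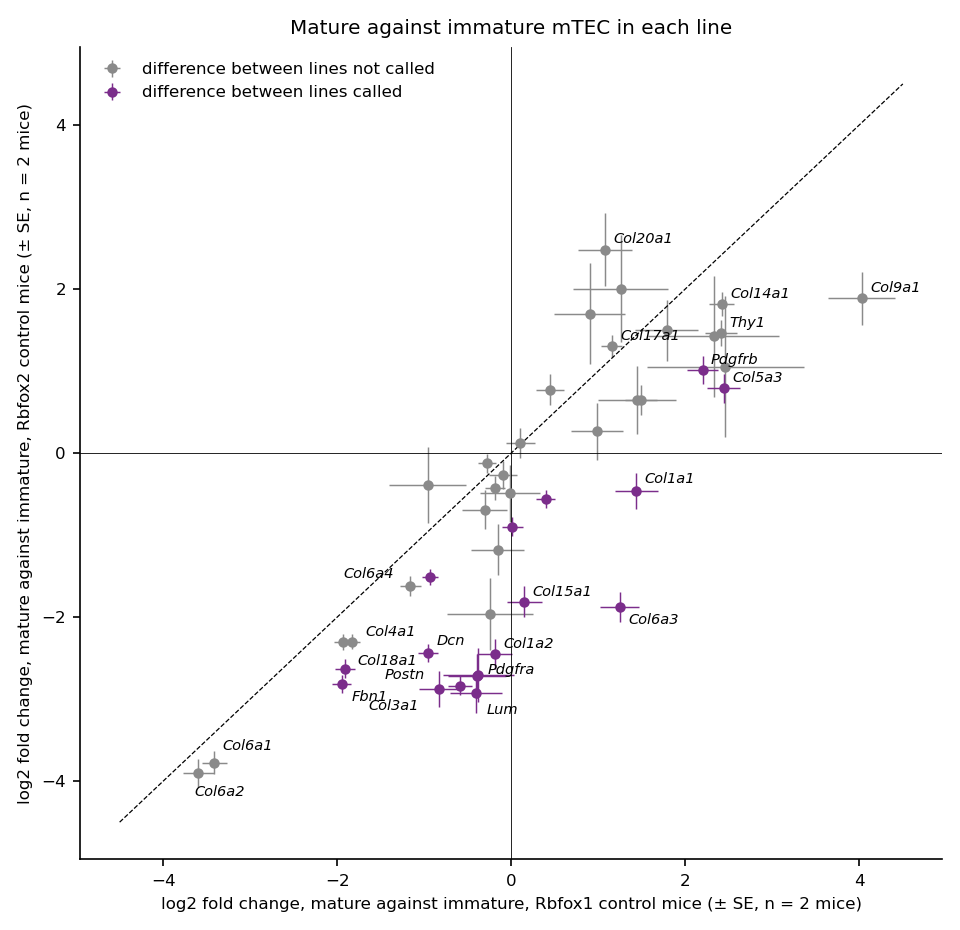
Log2 fold change of mature against immature mTEC in control mice of the Rbfox1 line (horizontal) and of the Rbfox2 line (vertical), 2 mice each, bars ± SE. The dashed line marks equal values, and purple points passed the test of the difference between lines. Col6a1, Col6a2, Col14a1 and Col17a1 lie near the line, while Col6a3 lies at 1.25 and -1.88. Col4a3, Col10a1 and Col11a1 are not drawn because of their few immature counts.

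Dividing each gene's counts by the Pdgfra counts of the same library removes depth and shows how far members kept their proportion to Pdgfra. Over all libraries of a population, Lum had 1.93 counts per Pdgfra count in immature and 2.01 in mature mTEC, Dcn 10.8 and 11.7, and Postn 10.9 and 9.42. Col3a1 had 12.6 and 11.6, Col1a2 6.9 and 8.28, and Col6a6 1.92 and 2.06. For each of these 6 genes the ranges over the 8 immature and the 8 mature libraries overlapped, so the proportion did not separate the populations. Col15a1, at 6.68 and 11.1, and Col4a1, at 42.9 and 39.8, overlapped as well. So did many other members, Col12a1, Col16a1 and Col18a1 among them, so overlap does not set the 6 genes apart. The share of all genes with such an overlap was not computed. Overlap between the populations is not a fixed proportion across the lines. In immature mTEC Dcn had 13.5 to 15.5 counts per Pdgfra count in the Rbfox1 and 8.51 to 10.7 in the Rbfox2 line, and Col4a1 80.8 to 128 and 17.7 to 35, both without overlap, whereas Lum, Postn, Col1a2, Col3a1, Col6a6 and Col15a1 overlapped between the lines.

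Other members departed from Pdgfra in mature mTEC. Col1a1 had 3.55 to 7.79 counts per Pdgfra count in the immature and 13.4 to 36.4 in the mature libraries, and Col6a3 1.52 to 4.26 and 4.89 to 12.3. The ranges did not overlap. For Col5a3 the proportion was 0.781 over all immature and 9.01 over all mature libraries, for Pdgfrb 0.751 and 8.76, for Thy1 0.731 and 10.4, for Col17a1 1.94 and 17.8, and for Col14a1 1.73 and 24.1, again with no overlap. Col1a1 and Col1a2, chains of the same trimer, stood at 4.92 and 6.9 counts per Pdgfra count over all immature libraries and at 20 and 8.28 over all mature ones, so their order turned. Pdgfra itself was lower in mature mTEC, so a gene that kept its level rises in this measure. Ratios rest on 19 to 52 Pdgfra counts in each mature and 23 to 122 in each immature library, which bounds their precision.

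**Figure D4:**
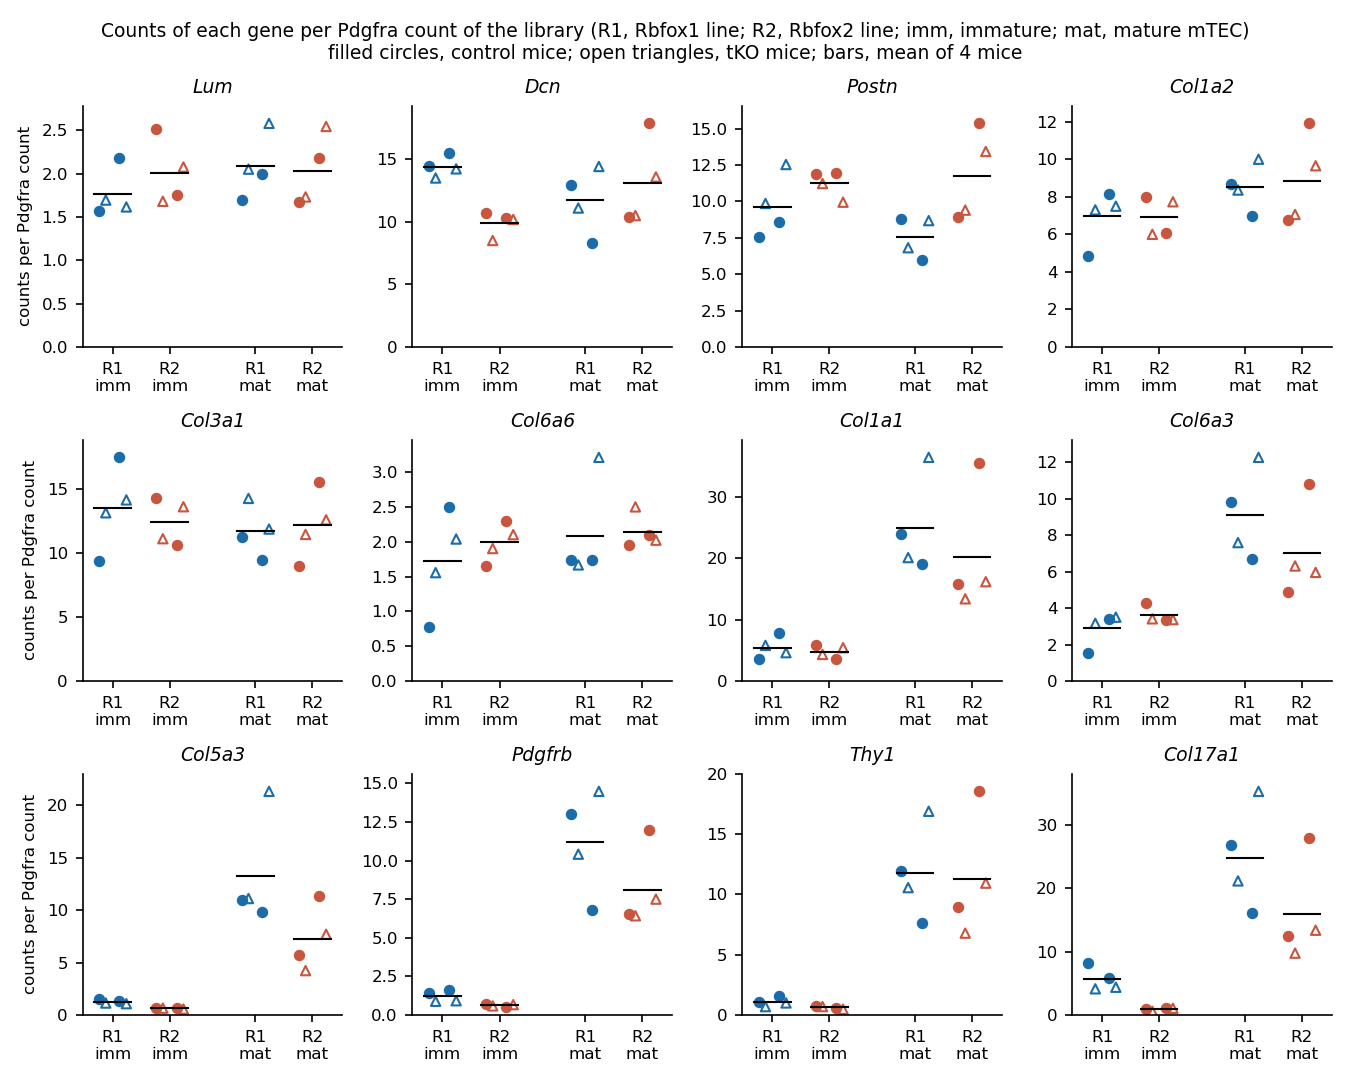
Counts of 12 genes per Pdgfra count of the same library (linear axes from 0), in immature and mature mTEC of both lines. Blue marks the Rbfox1 and red the Rbfox2 line, filled circles control and open triangles tKO mice, and bars the mean of 4 mice. Lum, Dcn, Postn, Col1a2, Col3a1 and Col6a6 have ranges that overlap between the populations, whereas Col1a1, Col6a3, Col5a3, Pdgfrb, Thy1 and Col17a1 are higher in every mature library than in any immature one.

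Across the immature libraries the lines form separate clusters of 4 mice for Pdgfra, so a correlation over all 8 carries the difference between the lines given above, and within a line it cannot be tested. The limit set for this description was a correlation of log2 CPM with Pdgfra of at least 0.7. Over all 8 libraries 17 of 32 collagens reached it, beside 15.5% of all other genes, a count that repeats the line difference and is no further result. With the line means removed, 7 collagens reached the limit, beside 3.84% of all other genes: Col1a2, Col3a1, Col5a1, Col5a3, Col6a3, Col8a1 and Col15a1, all among the 17. With the means of line and genotype removed, 3 of 32 did, beside 9.45% of all other genes, a share near that background. These were Col5a3, Col8a1 and Col27a1, of which Col27a1 was not among the 17. In the order over all 8 libraries, which the line difference sets, the 5 highest collagens were Col1a2, Col5a3, Col15a1, Col3a1 and Col6a3, the 5 lowest Col16a1, Col27a1, Col22a1, Col20a1 and Col17a1, and the highest genes outside the list Lrrc17, Abca8a, Hspg2, Cd34 and Mmgt2.

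In mature mTEC the lines overlapped and the 8 mice could be read together. Of 43 collagens 6 had a correlation with Pdgfra of at least 0.7, beside 2.79% of all other genes tested: Col15a1, Col3a1, Col1a2, Col6a6, Col5a2 and Col4a1. With line means removed the same 6 reached the limit, beside 4.27% of all other genes. With the means of line and genotype removed 6 collagens did, 5 of them the same, beside 7.87%. Col15a1, a basement membrane collagen of vessels and stroma, had the highest of all 18020 genes compared, with Pearson's r = 0.987 (exact permutation p = 9.92e-05, adjusted p = 0.67) and Spearman's rho = 0.952 (exact permutation p = 0.00114, adjusted p = 0.785). Without the 2 libraries farthest from the median of Pdgfra its r was 0.990, and with line means removed 0.993. No gene passed the adjustment, and 868 had an unadjusted p under 0.05, so these correlations are a description of 8 mice.

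For Lum the same measure was r = 0.899 (exact permutation p = 0.00479, adjusted p = 0.906) and rho = 0.81 (p = 0.0218, adjusted p = 0.785), for Col3a1 r = 0.881 (exact permutation p = 0.00429, adjusted p = 0.906) and rho = 0.857 (p = 0.0107, adjusted p = 0.785). Without the 2 farthest libraries r was 0.864 and 0.812. Col4a1, at r = 0.731 (exact permutation p = 0.0328, adjusted p = 0.906) and rho = 0.69 (p = 0.0694, adjusted p = 0.785), rests on those 2 libraries, since without them r was 0.083. Col5a2 also fell under the limit without them, from 0.754 to 0.561. Col1a1 was under the limit at r = 0.363 (exact permutation p = 0.373, adjusted p = 0.91) and rho = 0.286 (p = 0.501, adjusted p = 0.869), and so was Col5a3 at r = -0.25 (exact permutation p = 0.538, adjusted p = 0.924) and rho = -0.381 (p = 0.36, adjusted p = 0.833). With the 2 farthest libraries left out Col1a1 was at 0.835 and Col5a3 at -0.337. All p-values are two-sided and were taken over every pairing of the 8 mice.

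**Figure D5:**
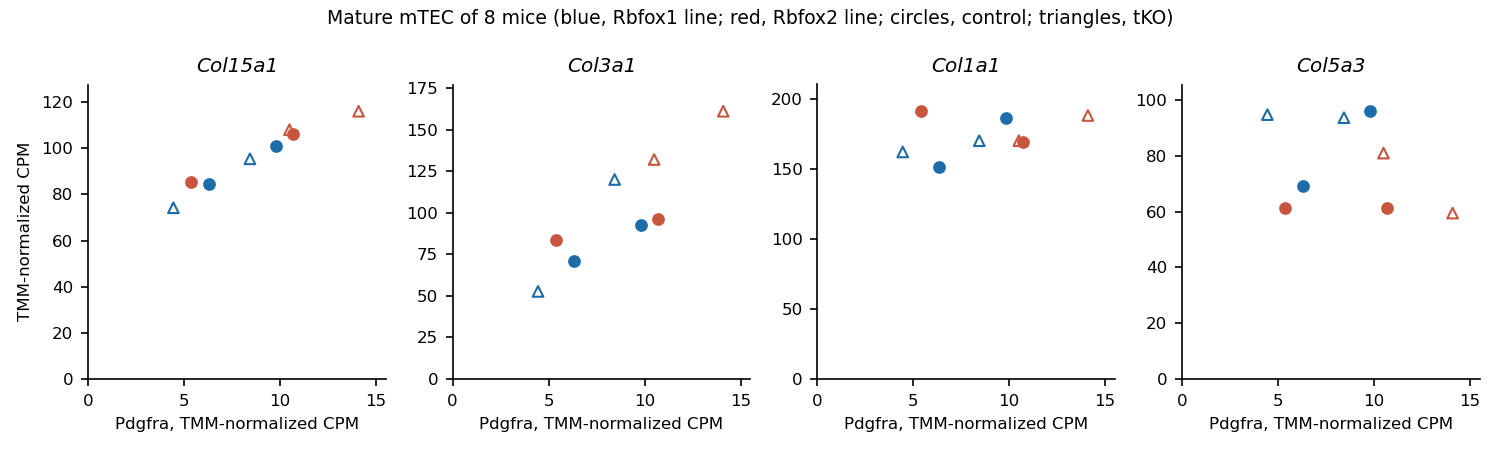
Levels of 4 collagens against Pdgfra in the 8 mature libraries, both as TMM-normalized CPM on linear axes from 0. Blue marks the Rbfox1 and red the Rbfox2 line, circles control and triangles tKO mice. Col15a1 rises with Pdgfra from 74.2 to 116 CPM in nearly a straight line, Col3a1 rises with more scatter, and Col1a1 and Col5a3 show no such course.

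The comparison the study was built for, tKO against control, called no member. In mature mTEC 0 of 50 members were called in the Rbfox1 line (0.0166% of all genes) and 0 of 50 in the Rbfox2 line (0.0277%), and in immature mTEC 0 of 39 in the Rbfox1 line (0.0306%) and 0 of 39 in the Rbfox2 line (0.0536%), by edgeR's quasi-likelihood test and by DESeq2 alike. At an unadjusted p under 0.05 the counts were 0 of 50, 12 of 50, 6 of 39 and 5 of 39 members. Beside them stood 3.35, 5.34, 5.90 and 6.25% of all genes in the same order. Except in mature mTEC of the Rbfox1 line, the members' share was above that of all genes, which was not tested for the set. No member passed the test of the difference of the tKO effect between the lines, in mature (0.00555% of all genes) or in immature mTEC (0.00766%). The smallest difference that 2 mice against 2 could show is not given here, so the lack of calls does not show that differences were absent.

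Postn had the lowest p in both comparisons where it led. In immature mTEC of the Rbfox1 line it was at 74.5 and 98.4 CPM in control and 164 and 166 CPM in tKO mice, a log2 fold change of 0.93 ± 0.21 (SE) with an adjusted p of 0.292 (edgeR). In mature mTEC of the Rbfox2 line it was at 95.5 and 82.7 CPM in control and 132 and 142 CPM in tKO mice, 0.62 ± 0.13 (SE) with an adjusted p of 0.16 (edgeR). In both cases the groups did not overlap, but the values did not pass the adjusted test. Without the immature library of Rbfox1 control mouse 3, 3 members were called in immature mTEC of the Rbfox1 line, Col1a2 at 1.20, Col3a1 at 1.14 and Col15a1 at 1.06. That fit compares tKO mice with 1 control library, which is assumed to vary like the libraries of the other groups. The library left, from mouse 2, is the one in which Col1a1, Col1a2, Col3a1, Col6a3 and Col6a6 were lowest.

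Whether the maturation contrast itself differed between tKO and control mice was tested over both lines. No member passed by edgeR's quasi-likelihood test (0% of all genes tested), with 6 of 49 at an unadjusted p under 0.05 beside 5.20% of all genes, and DESeq2 also gave 0. With the mouse as a block, since the mature and immature libraries of a number come from the same animal, 1 member passed, Col14a1, at -0.53 with an adjusted p of 0.0282 (edgeR). Its immature libraries were at 40.3 and 45.3 CPM in Rbfox1 control, 67.2 and 56.2 in Rbfox1 tKO, 40.7 and 64.1 in Rbfox2 control and 71.1 and 87.0 CPM in Rbfox2 tKO mice. In each line the tKO libraries were above the control libraries of the same line. In mature mTEC the values were 241 and 214, 189 and 224, 181 and 184, and 232 and 198 CPM in the same order, where tKO and control overlapped in the Rbfox1 line.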

How the data were processed

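RNA was sequenced from 16 libraries of sorted mature and immature mTEC of 8 mice. The authors made stranded paired-end libraries, aligned them to the mouse genome and deposited raw counts of read pairs per gene. Tools in the submitters' processing notes were featureCounts 1.6.0, HISAT2 2.1.0 and Picard 2.10.9, with mm10 as the build. Per the study's methods and file headers, duplicates were removed and reads down-sampled to one number in mature and another in immature mTEC before counting, which matched reads and not the counts over genes. Use of the strand in counting is not given in the sources read here, and a gene and its antisense partner may share reads. Of 89407 rows, 53464 were Ensembl genes and 35943 loci assembled by the authors, all of which entered library totals and fits.

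Counts were scaled by TMM, filtered (filterByExpr, minimum count 10) and tested with edgeR 4.0.16 (quasi-likelihood test, R 4.3.3) with Benjamini-Hochberg adjustment over all genes tested. Mature and immature libraries were fitted separately for genotype and line, and together within a genotype for maturation. Groups were taken from the sample labels. A gene was called at an adjusted p under 0.05 and over 2-fold, and an interaction at an adjusted p under 0.05. The SE is the log2 fold change divided by the square root of the test's F. DESeq2 1.42.0, other scalings and filters, thinned counts, blocks and left-out libraries were alternatives. Scripts were tested on simulated counts. Correlations used log2 CPM with a prior count of 2. Lengths and positions came from GENCODE vM21 and promoters from RefSeq.

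The members and gene lists were chosen with earlier results of these data known. Comparisons of the lines, and of maturation within and between lines, were added after the values were seen. Genes were named by rule: the 7 fibroblast genes, the 3 highest collagens per length in each role group, all called collagens, the largest changes, and the genes most and least like Pdgfra. Mature and immature libraries of a number came from 1 mouse, and deviations of such pairs correlated at 0.0885 to 0.164. Counts of replicates differed beyond sampling noise in every group (chi-square per degree of freedom 1.87 to 3.00). Intervals and floors cover counting error only, at a floor of 3 counts and 95% confidence.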

Additional observations from a re-analysis of the deposited data

Results flagged for a closer look

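The difference between mature and immature mTEC was not the same in the Rbfox1 and Rbfox2 lines for a set of members. In control mice the test of that difference (an interaction term in edgeR's quasi-likelihood fit, adjusted over all genes) passed for 17 members, all with a lower mature-to-immature ratio in the Rbfox2 line. In log2 units of Rbfox2 line minus Rbfox1 line, the collagens were Col12a1 (-0.58), Col15a1 (-1.97), Col18a1 (-0.72), Col1a1 (-1.90), Col1a2 (-2.26), Col3a1 (-2.05), Col5a1 (-0.96), Col5a2 (-0.91), Col5a3 (-1.65), Col6a3 (-3.12) and Col6a6 (-2.33). The fibroblast genes were Dcn (-1.48), Fbn1 (-0.87), Lum (-2.52), Pdgfra (-2.32), Pdgfrb (-1.19) and Postn (-2.25).

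In tKO mice 13 members passed, in the same direction. The collagens were Col15a1 (-1.59), Col1a1 (-1.96), Col1a2 (-1.28), Col3a1 (-1.31), Col5a1 (-0.90), Col5a2 (-0.81), Col5a3 (-1.80), Col6a3 (-1.92), Col6a6 (-1.42) and Col7a1 (-1.81), and the fibroblast genes Lum (-1.55), Pdgfrb (-1.54) and Thy1 (-1.43). The comparison of lines was added after the values were seen. Line, litter, genetic background and days of handling cannot be told apart with these mice. The part of other fibroblast genes and endothelial genes, whose levels moved with the line in immature mTEC, was not tested. With 2 mice in each condition, no group was large enough to look for single libraries that stand apart.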

How the results depend on the processing

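Over 2657 settings of 198 single results of called members, 2486 kept the call, 171 lost it and 0 changed sign, and 142 results held in every setting. Counts of called members moved by over 1.5 times as follows, and the cause was not tested unless the setting itself shows it. With at least 10 counts demanded in every library, which removes the members that are low in immature mTEC, the maturation counts were 21 in control mice, 21 in tKO mice, 15 in Rbfox1 control, 18 in Rbfox1 tKO and 21 in Rbfox2 tKO mice. Without a filter on low counts, the difference of maturation between lines in control mice was called for 1 member, and the difference of the tKO effect between lines for 1 member in mature and 1 in immature mTEC. Without a fold limit, the line comparison in immature mTEC called 29 members (23 in control mice and 23 in tKO mice), and at 1.5-fold 26. In mature mTEC it called 13 and 8. With 1 library left out at a time, the difference of maturation between lines in tKO mice was called for 4 to 16 members, the line comparison in mature mTEC for 1 to 4, and the Rbfox1 tKO comparison in immature mTEC for 0 to 3. In immature mTEC the collagens with a correlation with Pdgfra of at least 0.7 were 17 over all libraries, 7 within lines, all of them among the 17, and 3 within conditions, 2 of them among the 17.

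With the mouse as a replicate block, the maturation difference between genotypes was called for 1 member, Col14a1, and no other count moved by over 1.5 times. For tKO against control mice the numbers were not taken as pairs, since the labels do not say that same-numbered mice are littermates. Same-numbered mice of a line share their sex, and per the study's methods controls were littermates matched for sex. Deviations of same-numbered mice correlated at 0.0357 to 0.147. Libraries of a single mouse gave 0.0885 to 0.164, as low for true pairs, so this measure cannot decide on pairing. A replicate block on the numbers left 0 members called in each comparison. The median log2 fold change over all genes between mature and immature control libraries was 0.05 with TMM, 0.10 with DESeq2's size factors and 0.12 with library totals. Depth limits the members that are rare in immature mTEC, where 39 of 51 passed the filter against 50 in mature mTEC, and the ratios to Pdgfra.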

Other observations

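The genes outside the list whose levels were most like that of Pdgfra over the 8 mature libraries were Gpat3 (r = 0.979), Ildr2 (0.941), Gm30025 (0.939), Fgf10 (0.934) and 2810006K23Rik (0.932), given as a description without a test. None of them was called between the lines in mature mTEC. Fgf10 encodes a growth factor that mesenchyme makes for thymic epithelium.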
